A study of Mus musculus with 14 samples.

Results

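The H3K36me3 peaks left in round spermatids (RS) of mice labelled Setd2KO are the subject here. They are the 3676 autosomal peaks of the list deposited for that sample, taken without a further threshold, of 3692 peaks in all and of 83701 in the 4 deposited lists. They were chosen by their presence in that list. Its values, namely peak number, width, score and overlap with wild-type peaks and with genes, are therefore a description with no test. The RNA of the genes beneath them and the peak list of a second cell type were not used to choose them.

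The study profiled male germ cells from C57BL/6J adults that were wild type (WT) or labelled Setd2KO. Sorting by FACS after Hoechst and propidium iodide labelling gave spermatocytes of the pachytene and diplotene stages (PD), late in meiotic prophase, and round spermatids, the haploid cells that come next. Each of the 4 groups (PD WT, PD Setd2KO, RS WT and RS Setd2KO) had 1 H3K36me3 ChIP-seq peak list and 2 RNA-seq libraries. Input libraries were listed for PD WT and PD Setd2KO only, so neither RS group had its own input. The labels name neither the deleted part of Setd2 nor a Cre driver, and they leave unsaid whether a group's 2 libraries stem from separate animals. With 1 list per group, no difference between peak lists has a replicate check. The RNA p-values measure the spread between libraries, which may be technical.

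SETD2 is the enzyme that trimethylates lysine 36 of histone H3. It travels with elongating RNA polymerase II, so the mark lies over the bodies of transcribed genes and is sparse at their promoters. Proteins with PWWP domains read the mark, and members of the NSD family and ASH1L place lower methylation states on the same lysine.

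Of the 4 genes whose annotated start lay inside an RS Setd2KO peak, 2 had a RefSeq promoter that could be printed. They are shown because H3K36me3 is usually sparse at starts. Each sequence is the 250 bases before the start, read 5′ to 3′ on the gene's strand in build GRCm38.p6, with CG dinucleotides in capitals. Cubn, which encodes the endocytic receptor cubilin, is on the minus strand (window chr2:13491877-13492126), and Cks1brt, related in name to the cyclin-dependent kinase subunit Cks1b, is on the plus strand (window chr8:85151674-85151923).
Cubn: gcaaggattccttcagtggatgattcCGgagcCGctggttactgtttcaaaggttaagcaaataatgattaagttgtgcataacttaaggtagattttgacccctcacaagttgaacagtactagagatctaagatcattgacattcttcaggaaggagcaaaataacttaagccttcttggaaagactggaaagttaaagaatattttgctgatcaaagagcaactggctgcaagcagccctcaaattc
Cks1brt: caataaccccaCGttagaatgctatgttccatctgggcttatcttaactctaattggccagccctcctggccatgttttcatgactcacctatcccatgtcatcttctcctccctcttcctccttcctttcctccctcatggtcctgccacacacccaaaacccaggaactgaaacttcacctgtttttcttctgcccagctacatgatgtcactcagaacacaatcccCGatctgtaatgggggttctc
Both windows held 2 CG dinucleotides, a count or fewer that 29.0% of the 32851 RefSeq windows of this length share, and the median window held 6. The GC share was 39.6% for Cubn and 48.8% for Cks1brt, against a median of 52.4%. The peaks themselves, in build mm9 like all other coordinates here, lay at chr2:13413357-13413536 (score 50.71) and chr8:87675685-87675887 (score 65.77), and neither touched an RS WT peak. Cubn RNA stood at 0.321 and 0.356 FPKM (fragments per kilobase and per megaread mapped) in RS WT, against 0.988 and 0.979 FPKM in RS Setd2KO, and the RS groups did not overlap. Cks1brt read 0.786 and 0.870 FPKM in RS WT against 0.812 and 0.721 FPKM in RS Setd2KO, with overlapping groups. Both were under the mean of 1 FPKM that a gene needed in at least 1 group to be tested. The other starts inside a peak belonged to Olfr884, an olfactory receptor gene listed at 0 in all 8 libraries, and to Spink7.

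The RS Setd2KO peaks were narrow, and most had a score near the lowest in the list. Their median width was 176 bases, with quartiles of 157 and 190 bases, and 2397 of them (65.2%) were from 150 to just under 200 bases wide. The narrowest RS WT peak was 463 bases wide, and 3672 RS Setd2KO peaks (99.9%) were narrower than that. PD Setd2KO peaks had a median width of 587 bases, so the lists of the 2 cell types differed in width although they came from the same genotype. Together the RS Setd2KO peaks covered 647 kb, against 229.9 Mb under the 34499 RS WT peaks.

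The authors gave every peak a score, on a scale that the labels do not explain, with 50 as the lowest value in each list. The median score of the RS Setd2KO peaks was 56.5, and 25 of them (0.680%) reached 100. The score 50.43 was shared by 398 of the RS Setd2KO peaks (10.8%), and the next commonest, 61.05, by 96. In the RS WT list the commonest score was held by 10 peaks (0.0290%), and in the PD Setd2KO list by 13 (1.13%). Width and score were almost unrelated across the peaks (Pearson r = 0.054 of the logarithms, over 3676 peaks of 1 library).

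**Figure D1:**
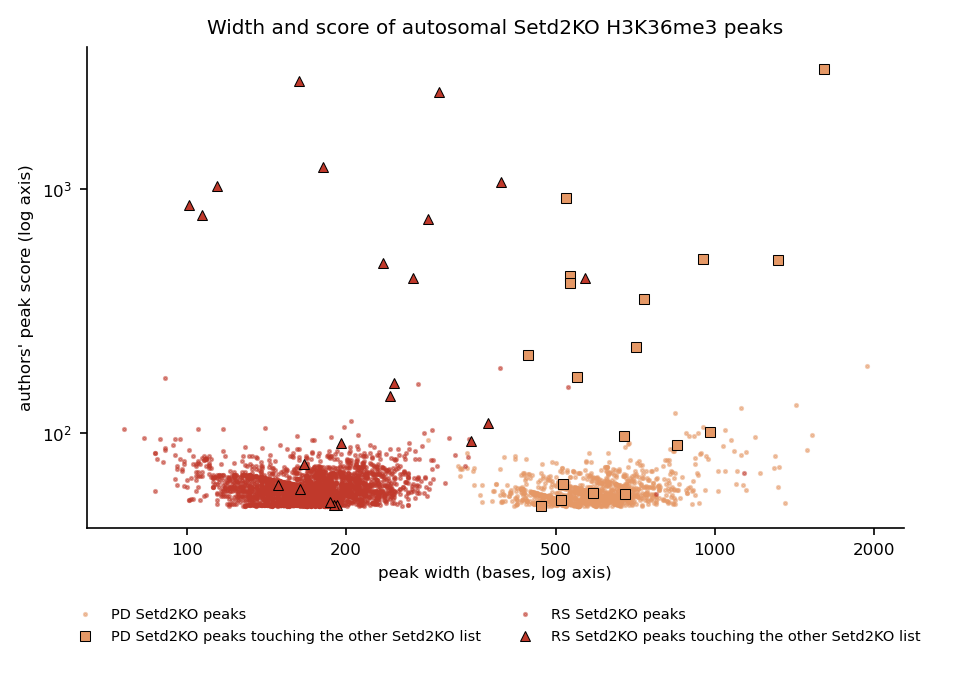
Width in bases and authors' score, both on log axes, of each autosomal peak in the RS Setd2KO (red) and PD Setd2KO (orange) lists, with outlined symbols for peaks that touch the other Setd2KO list. Most RS peaks form a cloud around 176 bases and a score of 56.5, left of the PD cloud around 587 bases, and 14 of the 25 RS peaks that score 100 or more touch a PD Setd2KO peak.

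A small set of loci stood apart from this cloud by score, and some of these also by clustering or by presence in both Setd2KO lists. Joining peaks less than 20 kb apart gave 3425 loci, of which 3217 held 1 peak, 178 held 2 and 30 held 3 or more. A score of 100 or more occurred at 13 loci. An overlap with a PD Setd2KO peak occurred at 10 loci and involved 22 RS peaks (0.598%, exact 95% binomial interval 0.375% to 0.905%). Both traits were found only at Fzr1, Emp2, Fasl, Whsc1 and a cluster on chromosome 9. The other loci with a score of 100 or more touched no PD Setd2KO peak, and most were single peaks. PD Setd2KO peaks covered 0.0284% of the autosomal extent seen in the data. Of the 25 RS peaks scoring 100 or more, 14 touched a PD Setd2KO peak, against 8 of the 3651 below 100 (0.219%, interval 0.0946% to 0.431%). These intervals cover counting error only, and peaks of 1 locus are not independent of each other.

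The highest scores lay over Fzr1, which encodes an activator of the anaphase-promoting complex (gene chr10:80829624-80841115, minus strand). In 3968 bases, chr10:80830211-80834178, there were 6 RS Setd2KO peaks with scores from 159 to 2754, the highest at chr10:80833426-80833588. PD Setd2KO had 4 peaks in that stretch, with a highest score of 3100. All 6 RS peaks lay under WT peaks of both cell types, with scores of 363 in RS and 1409.6 in PD. Scores were given per peak in separate libraries and lists, so they show no change in the mark between groups. Fzr1 RNA read 37.3 and 30.9 FPKM in RS WT against 23.2 and 24.1 FPKM in RS Setd2KO. The groups did not overlap, and the log2 change in FPKM + 1 was -0.51 (SE 0.16, limma, adjusted p = 0.0262). That call was lost when any of 3 libraries was left out, with adjusted p = 0.195 without the first RS WT library, 0.123 without the first RS Setd2KO library and 0.0730 without the second RS Setd2KO library.

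Emp2, a tetraspan membrane protein gene (chr16:10281842-10314061), carried 3 RS Setd2KO peaks with scores of 494 (chr16:10284491-10284725), 1228 (chr16:10285528-10285708) and 751 (chr16:10288069-10288354). Each touched a PD Setd2KO peak, with scores of 224, 412 and 354 in the same order. No WT peak of either cell type lay over the gene. Emp2 RNA was low, reading 0.157 and 0.12 FPKM in RS WT against 0.220 and 0.185 FPKM in RS Setd2KO, 0.563 and 0.495 FPKM in PD WT and 0.695 and 0.687 FPKM in PD Setd2KO. In both cell types the Setd2KO libraries were above the WT libraries, and the gene was below the level for testing.

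Fasl encodes the ligand of the death receptor Fas (chr1:163710823-163718626, minus strand). Its 2 RS Setd2KO peaks lay near opposite ends of the gene, one of 569 bases (chr1:163711638-163712206, score 433) and one of 393 bases with its midpoint 0.358 kb from the start (chr1:163718072-163718464, score 1068). PD Setd2KO peaks lay over both, with scores of 514 and 509, and WT had none. Fasl RNA read 1.76 and 1.31 FPKM in RS WT against 0.642 and 0.431 FPKM in RS Setd2KO, so both Setd2KO libraries were below both WT libraries. The log2 change in FPKM + 1 was -0.72 (SE 0.10, adjusted p = 0.000219). In PD the 4 libraries lay between 0.0414 and 0.0855 FPKM. The PD peaks were thus present where the transcript was close to 0.

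Whsc1, also called Nsd2, encodes a methyltransferase of the NSD family (chr5:34185761-34240615). It carried 4 RS Setd2KO peaks, with scores of 82.9 near the start (chr5:34188744-34188960), 432 (chr5:34225401-34225668), 141 (chr5:34228130-34228372) and 74.7 (chr5:34236144-34236310). The last 3 of these touched PD Setd2KO peaks with scores of 915, 169 and 209. The last 2 lay inside an RS WT peak that scored 1472. Whsc1 RNA read 14.9 and 14.2 FPKM in RS WT against 17.0 and 16.6 FPKM in RS Setd2KO. The groups did not overlap, but the difference did not pass the test (log2 0.19, 95% interval -0.07 to 0.46, adjusted p = 0.217).

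The largest cluster by number lay at the end of the peaks on chromosome 9, outside genes (chr9:123832350-123844769). It held 10 RS Setd2KO peaks with scores from 54.9 to 185, and 6 of them touched RS WT peaks, which had scores of 105 and 172. PD Setd2KO had 2 peaks there, with scores of 61.6 and 97.2. WT peaks thus lay over all the RS Setd2KO peaks at Fzr1, over some of them at Whsc1 and in this cluster, and over none at Emp2 and Fasl. At Whsc1 the highest-scoring peak touched no WT peak.

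**Figure D2:**
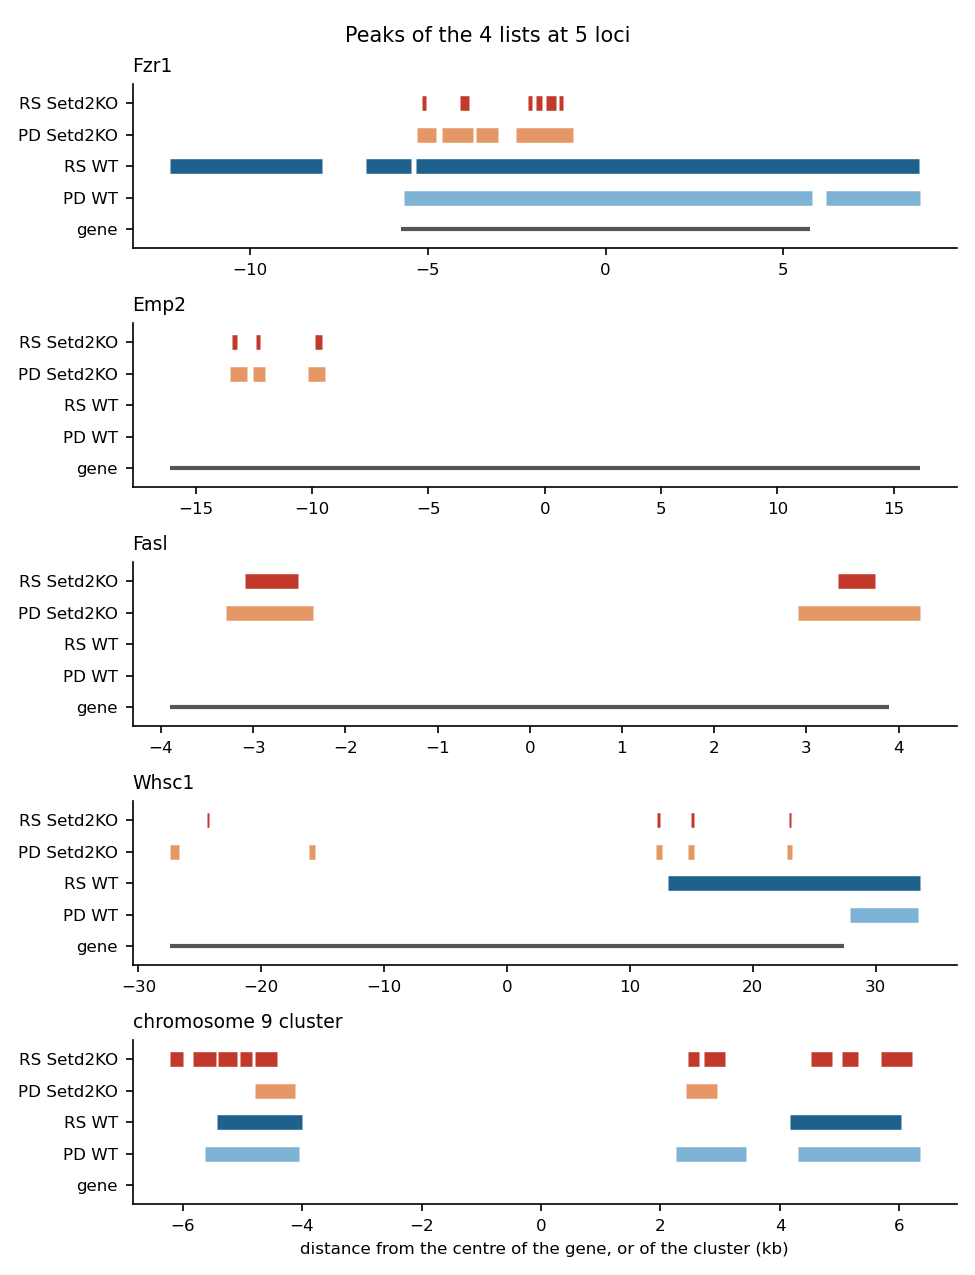
Positions of the peaks of the 4 lists at Fzr1, Emp2, Fasl, Whsc1 and the chromosome 9 cluster, with the distance from the centre of the gene or cluster in kb on the horizontal axis and the gene interval as a grey line. The RS and PD Setd2KO peaks line up at Fzr1, Emp2 and Fasl, and at these loci the narrower RS peaks lie within the span of PD peaks. At Whsc1 and in the cluster, some RS peaks touch no PD Setd2KO peak.

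The other overlaps between the Setd2KO lists had low scores in RS. Peaks over Nfasc (58.7 in RS, 56.2 in PD), Gphn (50.43 and 52.8) and Pcsk5 (51.8 and 56.6) touched, and were chosen for naming after their values were seen. The widest RS Setd2KO peak, 1139 bases at chr2:98506388-98507526, had a score of 68.2, lay outside genes and touched no peak of the other lists. The next widest, 775 bases at chr11:88829541-88830315 with a score of 56.3, lay inside an RS WT peak.

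The share of peaks lying under WT peaks was close to, or slightly below, the share of the autosomal extent that the WT peaks covered. Of the RS Setd2KO peaks, 318 (8.65%, 7.76% to 9.61%) touched an RS WT peak, 308 of them wholly inside it. The midpoints of 312 (8.49%, 7.61% to 9.44%) fell under RS WT peaks, which covered 9.30% of the autosomal extent. For the 3651 peaks with a score under 100 the midpoint share was 8.24% (7.37% to 9.18%). By midpoint, 8.24% of all peaks (7.37% to 9.18%) fell under PD WT peaks, which covered 9.64%. Among peaks scoring 100 or more, 11 of 25 (44.0%) touched an RS WT peak, 6 of which were at Fzr1. In the 4 score classes from 50 to 100 the share was between 7.86% and 9.0%. Peaks outside RS WT peaks lay a median of 162 kb from one, and 2108 lay more than 100 kb away.

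Genes held slightly more of the peaks than their extent. A gene interval was touched by 1612 peaks (43.9%, 42.2% to 45.5%), and 43.8% of midpoints lay in genes, which made up 34.8% of the autosomal extent. RS WT peaks touched genes in 78.4% of cases and PD Setd2KO peaks in 40.3%. Counting a peak for each gene it touched, the density was 1.86 peaks per Mb over genes and 1.28 (1.23 to 1.34) outside them. Whether a peak lay in an exon or an intron was not analysed here.

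The density was not higher over genes with more RNA. Over genes below 0.1 FPKM in RS Setd2KO it was 2.01 peaks per Mb (1.77 to 2.27), and over genes at 20 FPKM and more it was 1.31 (1.08 to 1.58). Across the same classes the share of gene bases under RS WT peaks went from 0.744% to 55.6%. Genes without any RS WT cover held 2.00 peaks per Mb, those with cover of up to 50% held 2.12, and those with 50% or more held 1.17. In genes of 200 kb and longer, the 5 expression classes lay between 2.48 and 2.97 peaks per Mb with no ordered trend.

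Density varied more with gene length than with expression. Genes under 10 kb held 0.420 peaks per Mb (13 peaks), genes of 10 to 50 kb held 1.05, of 50 to 200 kb 1.69, of 200 to 500 kb 2.60, and of 500 kb and longer 2.68. Without Auts2 and Sdk1 the last value was 2.48. Near gene starts the peaks were sparse. Within 1 kb of the nearest start there were 0.587 peaks per Mb (22 peaks, 0.368 to 0.889), and the density was 0.614 from 1 to 5 kb, 1.12 from 5 to 20 kb, 1.74 from 20 to 100 kb, 1.93 from 100 to 500 kb and 0.854 beyond. PD Setd2KO peaks had their highest density within 1 kb of a start, at 1.17 per Mb (0.853 to 1.58), and their lowest from 5 to 20 kb, at 0.220. RS WT cover was 14.7% within 1 kb of starts, 21.7% from 1 to 5 kb and 0.236% beyond 500 kb.

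**Figure D3:**
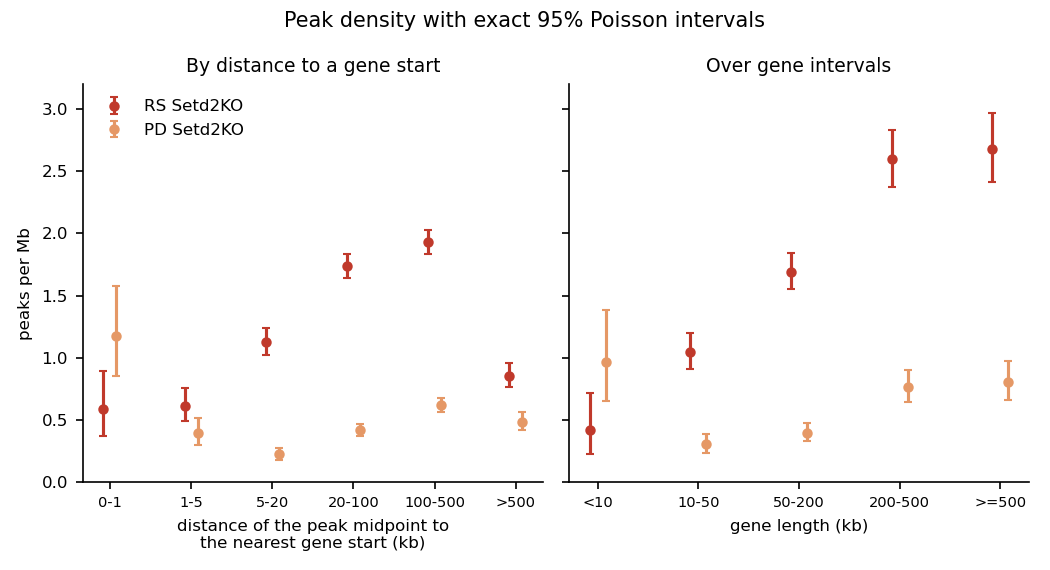
Peaks per Mb with exact 95% Poisson intervals in the RS (red) and PD (orange) Setd2KO lists, by distance of the peak midpoint to the nearest gene start (left) and by gene length (right), both in kb. RS density was 0.587 within 1 kb of a start and 1.93 at 100 to 500 kb, and PD density was 1.17 and 0.615 in the same classes.

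Along gene bodies of 10 kb and longer, divided into 10 equal bins, bin 1 from the start held 7.28% (6.06% to 8.66%) of 1607 pairs of a peak and a gene. Bin 7 held 12.2% (10.6% to 13.9%) and bin 10 held 9.15%. RS WT peaks were spread between 8.82% and 11.6% per bin.

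A few long genes held 10 or more of the low peaks each. Auts2, a regulator of transcription and of the cytoskeleton in neurons (chr5:131913552-133018213), had 20 RS Setd2KO peaks, a density of 18.1 per Mb (11.1 to 28.0), with scores from 50.43 to 88.9. It had 1 PD Setd2KO peak and no RS WT cover. Its RNA read 0.0253 and 0.0325 FPKM in RS WT against 0.0796 and 0.0900 FPKM in RS Setd2KO. The megabase with the most peaks, chr5:132000001-133000000 with 19, lies within this gene. Sdk1, a synaptic adhesion gene on the same chromosome, had 13 peaks (13.4 per Mb) and no RS WT cover, reading 1.03 and 0.719 FPKM in RS WT against 0.447 and 0.682 FPKM in RS Setd2KO. Macrod2, encoding a hydrolase that removes ADP-ribose, had 11, and Prkg1, the gene of a cGMP-dependent kinase, and Ptprt, that of a receptor phosphatase, had 10 each. In all, 1072 of 19725 autosomal genes (5.43%) were touched, 794 of them by 1 peak, with a median length of 143 kb against 16.2 kb for all genes.

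Density varied between chromosomes. Over the autosomes there were 1.49 peaks per Mb (1.44 to 1.54). Chromosome 19 had the most, 2.51 per Mb (2.13 to 2.94), then chromosome 9 with 2.18 and chromosome 2 with 1.92. Chromosome 4 had the fewest, 0.945 (0.798 to 1.11). The intervals treat peaks as independent, which clustered peaks are not. In the PD Setd2KO list, chromosome 19 held 0.277 peaks per Mb and chromosome 11 the fewest, 0.173. Of 2482 windows of 1 Mb, 919 (37.0%) held no RS Setd2KO peak.

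**Figure D4:**
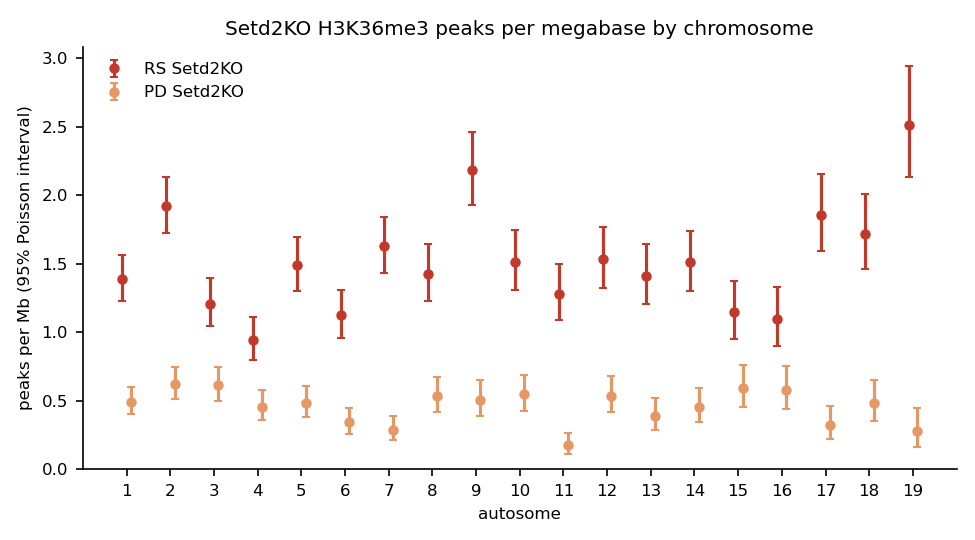
Peaks per Mb on each autosome in the RS (red) and PD (orange) Setd2KO lists, with exact 95% Poisson intervals that cover counting error only. In RS, chromosome 19 is highest at 2.51 and chromosome 4 lowest at 0.945, and in PD chromosome 19 is at 0.277.

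Gene lists chosen for H3K36 methylation and spermatids hold few genes, and 4 of these genes were touched. Over all autosomal genes, 5.43% were touched, at 1.86 peaks per Mb. Of 9 writers of H3K36 methylation (22.2% touched, 8.49 peaks per Mb, 2.76 to 19.8), Whsc1 was touched by 4 peaks and Ash1l by 1 peak with a score of 61.05. None of 7 erasers was touched. Of 15 readers of H3K36me3 (6.67% touched), Pwwp2b was touched by 1 peak (chr7:146451265-146451379, score 64.4). No peak touched the 5 protamine and transition protein genes, which package sperm DNA, and 1 of 26 acrosome genes was touched (Atg7, an autophagy gene). These lists span few bases, 0.00317 Mb for protamines and transition proteins and 1.23 Mb for the acrosome, so few peaks could fall on them. Among gene families, 26 of 359 solute carriers were touched (2.02 peaks per Mb, 1.39 to 2.83), 6 of 374 genes with Zfp symbols (0.938 per Mb) and 1 of 68 protocadherins (0.281 per Mb). Of 329 vomeronasal receptors 1 was touched (0.295 per Mb, 0.00746 to 1.64), and of 1112 olfactory receptors 1 (0.601 per Mb, 0.0152 to 3.35). The olfactory receptors span only 1.66 Mb, and their interval holds the value over all genes.

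RNA-seq depth, worked back from the values of low genes, was 50.8 to 84.9 megareads per library. Setd2 RNA read 21.2 and 19.1 FPKM in PD WT against 21.03 and 21.4 FPKM in PD Setd2KO, and in RS it read 5.24 and 5.58 FPKM for WT against 12.1 and 8.67 FPKM for Setd2KO. The RS difference passed the test (log2 0.81, SE 0.15, adjusted p = 0.00162), and no peak of the RS Setd2KO list lay over Setd2. Since the deleted part is not named, the level over the whole gene does not check the genotype. Summed FPKM over 15 round spermatid markers was 5225 and 5446 in RS WT against 2057 and 2280 in RS Setd2KO, and all 15 were at 1 FPKM or more in RS Setd2KO. Tnp1, Tnp2 and Prm1 made up most of the RS WT sum and of its fall. Their mean FPKM was 1007, 1000 and 927 in RS WT against 293, 292 and 228 in RS Setd2KO. The other round spermatid markers were not summed apart. Over 18 spermatocyte markers the sum was 426 and 439 in RS WT against 548 and 583 in RS Setd2KO. Other cell type markers also differed between the RS groups. Over 12 Sertoli cell markers the sum was 5.95 and 8.55 in RS WT against 18.1 and 15.6 in RS Setd2KO, with 4 of 12 at 1 FPKM or more in RS Setd2KO. Over 7 peritubular myoid markers it was 80.2 and 83.2 in RS WT against 35.7 and 33.6 in RS Setd2KO, with 5 of 7 at that level. Spermatogonia, Leydig cell, macrophage, and endothelium and erythrocyte markers summed to between 3.77 and 11.5 in RS WT and between 4.22 and 14.9 in RS Setd2KO. In none of the 8 lists was a marker at 0 in all 4 RS libraries. The part of these markers in the RNA results below was not tested, and in sorted bulk cells fewer cells of a type and less RNA per cell cannot be told apart.

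Genes under the RS Setd2KO peaks changed in both directions in RS. Of the 1072, 614 (57.3%) passed the filter on low values. Setd2KO was higher than WT in RS for 162 of them (26.4%) and lower for 144 (23.5%). The background over 11084 autosomal genes tested was 20.4% higher and 22.1% lower, 42.4% in either direction. The median log2 change was 0.05 for genes with a peak and 0.01 for all autosomal genes. Leaving out the first RS WT library took the 162 to 99, and leaving out the first RS Setd2KO library took the 144 to 88.

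The shares differed with WT cover. Of 444 tested peak genes with RS WT cover, 25% were higher and 18.2% lower, and of 170 without it 30% were higher and 37.1% lower. Genes with no RS Setd2KO peak had 18.7% higher and 19.6% lower with WT cover, and 23.6% and 28.4% without it. By gene length, the shares of tested genes higher in Setd2KO with and without a peak were 29.1% and 21.0% at 10 to 50 kb, 23.7% and 23.9% at 50 to 200 kb, and 24.0% and 21.6% at 200 to 500 kb. At 500 kb and over they were 42.9% of 56 genes and 14.3% of 21 genes. The shares lower, in the same order, were 16.4% and 20.4%, 25.1% and 18%, 25.7% and 23.8%, and 21.4% and 38.1%. Under 10 kb, 2 genes with a peak were tested. These splits were not tested against each other.

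The rises in RS Setd2KO given here are called peak genes with at least 5 FPKM in the higher group and no overlap between groups. The largest by log2 was that of Epha7, an ephrin receptor with 1 peak (score 54.5). It read 1.63 and 1.55 FPKM in RS WT against 7.05 and 6.81 FPKM in RS Setd2KO (log2 1.61, SE 0.11, limma, adjusted p = 2.53e-06). Nek2, a kinase of the centrosome cycle, had 1 peak (score 54.1) inside a WT peak and read 30.5 and 33.9 FPKM in RS WT against 107 and 87.8 FPKM in RS Setd2KO (log2 1.56, SE 0.16, adjusted p = 3.35e-05). Galntl6, a glycosyltransferase gene with 2 peaks, read 2.18 and 3.97 FPKM in RS WT against 11.0 and 9.62 FPKM in RS Setd2KO (log2 1.51, adjusted p = 0.000445). In each of these genes both Setd2KO libraries were above both WT libraries. Wwox, a long gene of an oxidoreductase with 5 peaks, rose by 1.27 (adjusted p = 1.55e-05), Smad1, a transducer of BMP signals, by 1.12 (adjusted p = 0.000210), and Syne2, a protein of the nuclear envelope, by 0.93 (adjusted p = 0.000132). The score of the peaks over these 3 genes did not exceed 70. Macrod2 went from 4.57 and 3.71 FPKM to 6.84 and 6.46 FPKM in RS (log2 0.58, adjusted p = 0.00385). Of the other genes with most peaks, Prkg1 fell in RS from 5.08 and 5.06 FPKM to 3.17 and 4.23 FPKM (log2 -0.38, limma, adjusted p = 0.0332). Ptprt was not called (log2 0.11, limma, adjusted p = 0.259), and Auts2 and Sdk1 were below the level for testing.

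Among the peak genes that fell in RS Setd2KO by the same criteria was Dlg1, a scaffold of cell junctions with 1 peak (score 60.5). It went from 6.63 and 6.49 FPKM in RS WT to 1.42 and 1.72 FPKM in RS Setd2KO (log2 -1.56, SE 0.13, limma, adjusted p = 8.90e-06). Map4k3, a kinase of amino acid signalling, had 1 peak inside a WT peak and went from 12.4 and 11.2 FPKM to 3.38 and 3.42 FPKM (log2 -1.54, SE 0.11, adjusted p = 4.11e-06). Rapgef5, a nucleotide exchange factor for Rap proteins, had 4 peaks and no WT cover and went from 6.82 and 7.23 FPKM to 1.98 and 2.56 FPKM (log2 -1.30, SE 0.11, adjusted p = 7.53e-06). The groups did not overlap in any of the 3. Fam189a2, Kctd16 and Col20a1 fell by 1.18, 1.18 and 1.11. Pwwp2b, the touched reader gene, went from 60.9 and 53.8 FPKM to 24.1 and 31.5 FPKM (log2 -1.03, adjusted p = 0.000982). It had no RS WT cover.

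The peak genes with the highest RNA included Pabpc1, a poly(A)-binding protein, Acyp1, Lrrc18, Spata6 and Slc16a7. Pabpc1 read 152 and 212 FPKM in RS WT against 313 and 333 FPKM in RS Setd2KO (log2 0.84, adjusted p = 0.00546), a call lost without the first RS WT library (adjusted p = 0.0821). The other 4 did not pass the test, with log2 changes from -0.37 for Slc16a7 to 0.31 for Acyp1. Fitted on the 4 RS libraries alone, Acyp1 and Slc16a7 were called (adjusted p = 0.0368 and 0.0438), and Acyp1 was also called with quantile normalization (adjusted p = 0.00870). Their single peaks were low, with Acyp1 at 54.8 and Lrrc18 at 61.05.

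**Figure D5:**
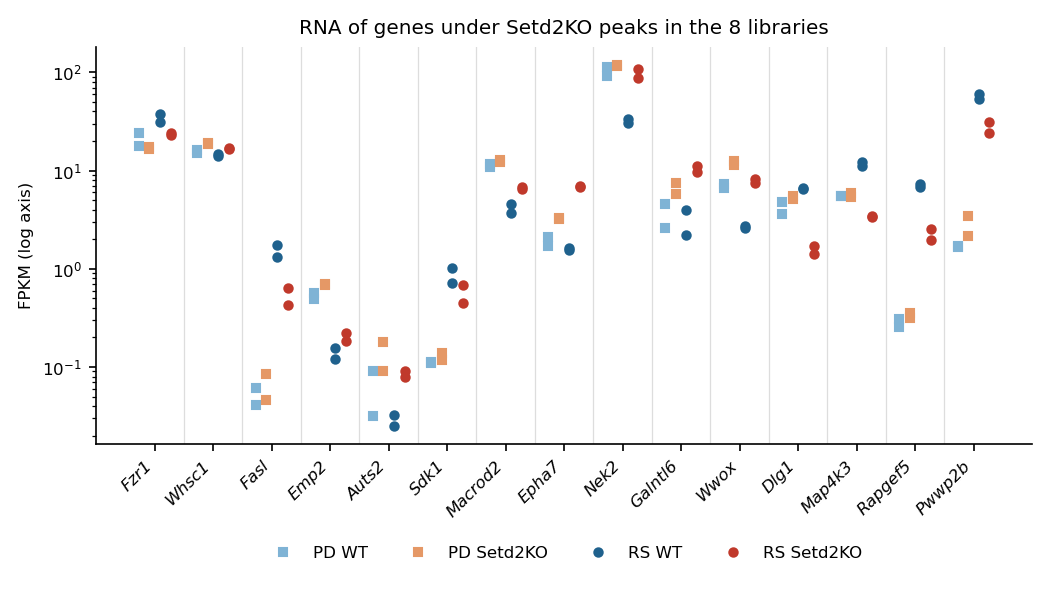
FPKM on a log axis of 15 genes under RS Setd2KO peaks in the 8 RNA-seq libraries, each symbol 1 library (squares PD, circles RS, blue WT, red or orange Setd2KO). In RS, Epha7, Nek2, Galntl6 and Wwox are higher in Setd2KO, Dlg1, Map4k3 and Rapgef5 are lower, and Emp2 and Auts2 are under 1 FPKM in every library.

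The Setd2KO effect on RNA differed between RS and PD for 257 of the 614 tested peak genes (41.9%), with a background of 34.7% of autosomal genes. The RS libraries show Dlg1 lower in Setd2KO while in PD its values were 4.74 and 3.58 FPKM for WT against 5.12 and 5.51 FPKM for Setd2KO. Map4k3 was at 5.49 and 5.54 FPKM in PD WT and 5.40 and 5.86 FPKM in PD Setd2KO. For Fzr1 the RS and PD effects did not differ by the interaction test in limma (adjusted p = 0.495), nor for Whsc1 (adjusted p = 0.800). Fasl passed that test (adjusted p = 0.00243), but its mean was 0.0514 FPKM in PD WT and 0.0657 FPKM in PD Setd2KO. A fall in PD could not be seen at that level, so the Fasl result does not compare 2 measurable effects.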

How the data were processed

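The deposited ChIP-seq data are 1 list of H3K36me3 peaks per group, each peak with a score made by the authors, with CASAVA, Bowtie and bedtools named in the submitters' processing notes and peak names of the MACS form. The build was mm9 per those notes, and versions are not given in the sources used here. The labels' protocols mention spike-in chromatin without saying whether it scaled the lists. The input libraries, listed for PD only, were not analysed here. RNA-seq came as FPKM values computed by the authors, with CASAVA, TopHat2, Cufflinks and Cuffdiff named in the submitters' processing notes, on poly(A) RNA with a directional kit per the labels.

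Peaks were compared by overlap (1 base or more), with exact 95% binomial or Poisson intervals (scipy 1.17.1, pandas 2.3.3, Python 3.11.15). The autosomal extent ran to the last base seen in the files. Gene intervals were those of the RS Setd2KO table, and 69 of the 1072 touched genes, Prkg1 among them, had another interval in another table. Lrrc18, Macrod2, Prkg1, Galntl6, Spink7 and Zfp982 overlap another gene. A peak counts for each gene it touches, and reads of such genes may be shared, since the use of strand in counting is not given in the sources used here. Genes with a mean of 1 FPKM or more in at least 1 group were fitted as log2(FPKM + 1) with limma 3.58.1 (R 4.3.3, intensity trend, 1 mean per group, 11452 genes), with Benjamini-Hochberg adjustment over all tested genes and calls at 0.05. Fold changes of low genes are understated on this scale. Depth was recovered from single-exon olfactory receptor genes, whose values were whole reads within 0.02 for 99.1% to 100% of values. The fit was tested on simulated data.

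The peaks, lists and named genes were chosen with earlier results of these data known. Peaks named are the 6 widest, the 6 highest by score and the 6 highest that touch PD Setd2KO peaks, and the other peaks at these loci were added after their values were seen. Genes named are those under these peaks, the 5 with most peaks, the 6 with the highest FPKM, those whose start lies in a peak, the 6 largest called changes per direction (both Setd2KO libraries beyond both WT libraries, at least 5 FPKM), up to 4 touched members of each list, and Setd2, Acrbp, Prm1, Prm2, Tnp1 and Tnp2. A gene that this rule names is not reported here. Alternatives were other score minimums, overlap rules, filters, pseudocounts, scalings, left-out libraries and a replicate block. Replicate numbers were not taken as pairs, because same-numbered libraries did not deviate together.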

Additional observations from a re-analysis of the deposited data

Results flagged for a closer look

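The RS Setd2KO list held 16 peaks on the sex chromosomes, 13 on X and 3 on Y, which are outside the autosomal comparisons, while the other 3 lists held 0. No control list had a peak there to set beside them, although the RS WT list held 34499 autosomal peaks and the PD WT list 44358. Whether X and Y were left out of those lists was not tested, so these peaks cannot be called particular to RS Setd2KO. Their widths ran from 83 to 292 bases and their scores from 50.43 to 107. Of the X peaks, 7 lay within 27.4 kb at chrX:166415170-166442552, 2 of them over Mid1, a gene that in this strain crosses the boundary of the pseudoautosomal region, where X and Y pair in male meiosis. The 3 Y peaks lay within 2.32 kb at chrY:2473520-2475838.

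For the genes below, the Setd2KO effect in RS differed from that in PD by the interaction test in limma with adjusted p under 0.05. The difference of the effects (RS minus PD, log2) is given for each. Among genes under RS Setd2KO peaks it was above 0 for Epha7 (1.07), Nek2 (1.36), Smad1 (0.95), Syne2 (0.92), Wwox (0.56) and Zfp407 (0.56). It was below 0 for Col20a1 (-1.54), Dlg1 (-1.86), Fam189a2 (-1.32), Fasl (-0.74), Kctd16 (-1.36), Lrrc18 (-1.82), Map4k3 (-1.57), Prkg1 (-0.81), Pwwp2b (-1.51), Rapgef5 (-1.36), Slc16a7 (-0.79), Slc22a14 (-2.12), Zfp618 (-0.93) and Zfp982 (-0.81). Among genes without such a peak it was above 0 for Setd2 (0.74) and below 0 for Prm1 (-1.22), Tnp1 (-1.29) and Tnp2 (-1.37). Fam189a2, Fasl, Kctd16, Prkg1, Rapgef5 and Zfp618 had means under 1 FPKM in both PD groups. A fall in PD could hardly be seen for them, so their test cannot say whether the PD response was unlike that in RS. Epha7, Nek2, Smad1, Syne2, Wwox, Col20a1, Dlg1, Fam189a2, Kctd16, Map4k3 and Rapgef5 were named for large called RS changes, which enter this difference. Lrrc18 stood at 4.90 and 6.41 FPKM in PD WT, 24.3 and 12.9 FPKM in PD Setd2KO, 222 and 224 FPKM in RS WT and 153 and 207 FPKM in RS Setd2KO. Slc22a14, a transporter gene, stood at 1.71 and 3.6 FPKM in PD WT, 11.3 and 6.55 FPKM in PD Setd2KO, 144 and 128 FPKM in RS WT and 68.7 and 104 FPKM in RS Setd2KO.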

How the results depend on the processing

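The share of RS Setd2KO peaks touching an RS WT peak moved from 8.65% to 44.0% for scores of at least 100, and to 7.48% against WT peaks of at least 100. The share touching a gene was 41.9% for scores of at least 60 and 64.0% for at least 100. The share touching a PD Setd2KO peak was 1.45% with both lists at 60 or more, 48.0% at 100 or more, 0.952% within 1 kb and, chosen after seeing the data, 0.219% for RS scores under 100.

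In RS, 2390 genes were higher and 2499 lower. With a filter of 5 FPKM the counts were 1417 and 1581, and those of peak genes 70 and 73. These were 20.3% and 21.2% of the peak genes tested, against 18.4% and 20.9% of autosomal genes. Without a filter, 4324 genes and 298 peak genes were higher. Of the 7 genes with a peak of score 100 or more, 3 were tested. In limma 0 of these were higher and 2 lower (also at an unadjusted p under 0.05), with 22.1% of all autosomal genes lower. The 2 were Fzr1, whose call depended on single libraries, and Fasl. Only its RS WT mean of 1.54 FPKM brought Fasl into the test, which favours a fall. Leaving out each RS library in turn gave 1278 to 1829 genes higher, 1609 to 2375 lower, 99 to 128 peak genes higher and 88 to 138 lower, with fewer samples in each such fit. With the replicate number as a block, 2281 genes were higher and 2414 lower, 160 and 139 of them peak genes. Same-numbered RS libraries had r = -0.153 of their deviations, and pairing them crosswise, added after seeing the data in the RS libraries alone, gave 2835 higher and 2908 lower, 177 and 164 of them peak genes. Without a block, the fit on the RS libraries alone gave 2607 higher and 2590 lower, 160 and 149 of them peak genes. Directions turned for Ash1l, which ranged from -0.093 to 0.16 on leaving out an RS library, and for Spata6, which ranged from -0.13 to 0.053. Neither was called. Unless stated above, the cause was not tested.

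The peak lists have 1 library per group and no depths, so counting intervals are the only error given for them, and the score is comparable within a list only.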
